A study of Mus musculus with 10 samples.

Results

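The genes described here build or mark the motile cilium of ependymal cells, the ciliated sheet that lines the brain ventricles and covers the subventricular zone (SVZ), the layer of the adult mouse brain in which new neurons are made. Members were chosen by name: every probe annotated to 1 of 38 gene symbols, or to an older name of it, was taken, and a probe was used if 4 or more of the 9 mice detected it (detection p-value under 0.05). Of the 38 genes, 33 had a named probe and 30 had a probe that was kept, out of 11370 named genes kept on the array. The 38 genes had 61 probes, of which 48 were kept, and a gene is described by its brightest kept probe. Ccdc153, Tekt2, Tekt4, Lrrc23 and Meig1 had no named probe here and were not analysed. The probes of Spag6, Spef2 and Tmem212 were detected in 0 of 9 mice. Of the 30 kept genes, 29 were detected in all 9 mice, and Hydin, detected in 7, was the kept gene nearest to the limit.

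The SVZ was cut out by laser from the brains of BL6 mice aged 8 weeks, and its RNA was measured on Illumina bead arrays. The groups were 4 mice labelled Tlx overexpressing (2995, 3155, 3157 and 3163) and 5 wild type mice (c1, c2, 2989, 2996 and 3164). All mice of both genotypes had an ischemic stroke of the striatum on 1 side, so the arrays hold no mouse without a stroke. The promoter that drives Tlx, the hemisphere captured and the time after stroke are not given in the sources used here. Mouse c1 was measured on 2 arrays, averaged here as 1 mouse. The single probe of Nr2e1, the gene of the nuclear receptor Tlx, was brighter in every Tlx overexpressing mouse than in every wild type mouse, by 0.41 on the log2 scale (SE 0.11), and did not pass over all probes (limma adjusted p = 0.084). Over all 20401 kept probes 192 differed between the genotypes. Neuroblast markers, which check the labelled tissue, were present, with 9 of 12 genes kept, among them Dcx, Igfbpl1 and Dlx1.

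A motile cilium beats because dynein arms, fixed in rows on outer microtubule doublets, slide the doublets against each other. Radial spokes and the central apparatus set the timing of this sliding, nexin links limit it, and tektins and other inner proteins stiffen the doublet wall. Foxj1 switches on the genes of the motile axoneme, and the RFX factors Rfx2 and Rfx3 act with it by binding a sequence called the X-box. In the brain, ependymal cilia move cerebrospinal fluid along the ventricle wall. Choroid plexus epithelial cells, which hang in the same ventricles, also carry cilia and express Foxj1.

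X-box letters were common near the starts of these genes. The 300-base windows from RefSeq (GRCm38.p6), which run from 250 bases before to 50 bases after a gene's start, were available for 33 of the 38 genes, 25 of them measured. Foxj1, Rsph1, Rsph4a, Tppp3 and Wdr78 had none in the table. The X-box was spelled as GTNNCC followed, after 1, 2, 3 or 4 bases of any kind, by GNAAC, and was searched on both strands. At least 1 spelling lay in the windows of 16 of 33 members (48.5%), compared with 5.94% of 27025 genes. The spelling with 2 bases between the sides lay in 10 members (30.3%) and in 1.81% of all genes. The 6-letter side GTTGCC, contained in many of these matches, lay in 21 members (63.6%) and in 14.1% of all genes. The forkhead letters GTAAACA lay in the windows of 2 members, Ak7 and Mlf1 (6.06%), and in 4.05% of all genes. These spellings were settled with the members' windows in view, so the shares are a description, and a match is not a measured binding site. Windows of 4 members are shown 5′ to 3′ on the strand of the gene, with X-box letters in capitals. They are 1110017D15Rik, Dynlrb2 and Enkur, whose means were lower in the Tlx overexpressing mice by amounts that did not pass, and Dnah11, which holds no X-box letters and had the highest difference. The 4 were picked by hand and do not represent the other members.
1110017D15Rik, chr4:41507715-41508014, minus strand: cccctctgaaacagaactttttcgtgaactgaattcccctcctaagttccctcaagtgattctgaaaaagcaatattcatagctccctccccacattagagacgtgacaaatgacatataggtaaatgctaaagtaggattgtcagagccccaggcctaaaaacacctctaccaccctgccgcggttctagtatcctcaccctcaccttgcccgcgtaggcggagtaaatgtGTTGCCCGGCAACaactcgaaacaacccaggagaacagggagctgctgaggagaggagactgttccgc
Dynlrb2, chr8:116504765-116505064, plus strand: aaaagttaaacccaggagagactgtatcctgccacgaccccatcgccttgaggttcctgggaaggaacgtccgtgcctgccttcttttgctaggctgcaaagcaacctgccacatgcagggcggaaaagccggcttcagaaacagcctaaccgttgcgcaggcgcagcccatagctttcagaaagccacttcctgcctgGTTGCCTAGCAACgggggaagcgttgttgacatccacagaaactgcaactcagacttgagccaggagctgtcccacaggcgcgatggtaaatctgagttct
Enkur, chr2:21205316-21205615, minus strand: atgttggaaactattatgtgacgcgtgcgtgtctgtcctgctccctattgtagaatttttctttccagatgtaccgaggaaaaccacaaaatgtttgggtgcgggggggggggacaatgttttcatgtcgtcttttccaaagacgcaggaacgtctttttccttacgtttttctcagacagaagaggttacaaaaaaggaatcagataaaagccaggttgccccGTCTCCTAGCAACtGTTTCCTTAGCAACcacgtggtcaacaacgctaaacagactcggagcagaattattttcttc
Dnah11, chr12:118198994-118199293, minus strand: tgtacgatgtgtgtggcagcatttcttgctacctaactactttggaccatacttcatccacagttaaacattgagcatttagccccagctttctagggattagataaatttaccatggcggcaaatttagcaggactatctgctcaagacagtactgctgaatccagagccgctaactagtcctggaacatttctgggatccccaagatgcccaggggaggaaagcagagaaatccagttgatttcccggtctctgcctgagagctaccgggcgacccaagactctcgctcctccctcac
The match in 1110017D15Rik, GTTGCCCGGCAAC, reads as an X-box on both strands and runs from 18 to 6 bases before the start. The match in Dynlrb2, GTTGCCTAGCAAC, runs from 51 to 39 bases before the start. Among the 25 measured genes with a window, the 10 with X-box letters had a median log2 difference between the genotypes of -0.07 and the 15 without had a median of 0.02. Lower means were found for 8 of the 10 with X-box letters and for 7 of the 15 without. Mns1 has X-box letters and a higher mean (0.16), and Capsl, the lowest member (-0.42), has none in its window. The ranges of these 2 sets overlapped (-0.22 to 0.16 with, -0.42 to 0.54 without), and their difference was not tested.

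The motile cilium genes were present at similar levels in both genotypes, and none of the 30 passed the test. Over all kept probes limma called 0.941% at an adjusted p under 0.05. Probes called higher in the Tlx overexpressing mice made up 0.539%, and probes called lower 0.402%. In the same fit 0 of the 30 genes, and 0 of their 48 probes, were called. At an unadjusted p under 0.05, limma gave 4 lower and 2 higher members, and 17.6% of all kept probes were below that limit (9.20% lower, 8.39% higher), so the count of members was near the background. Of the 30 genes, 19 had a lower mean in the Tlx overexpressing mice, as did 49.1% of all kept probes. The median log2 difference of the members, Tlx overexpressing minus wild type, was -0.05, and that of all kept probes was 0.0038. For 25 of the 30 genes the difference was smaller than 0.25 on the log2 scale in either direction. The 95% intervals of single genes reached from -0.81 (Capsl) to 0.80 (Dnah11) at their widest, and for 25 genes they stayed within 0.5 of 0 on both sides. The number of mice limits the precision of these intervals.

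**Figure D1:**
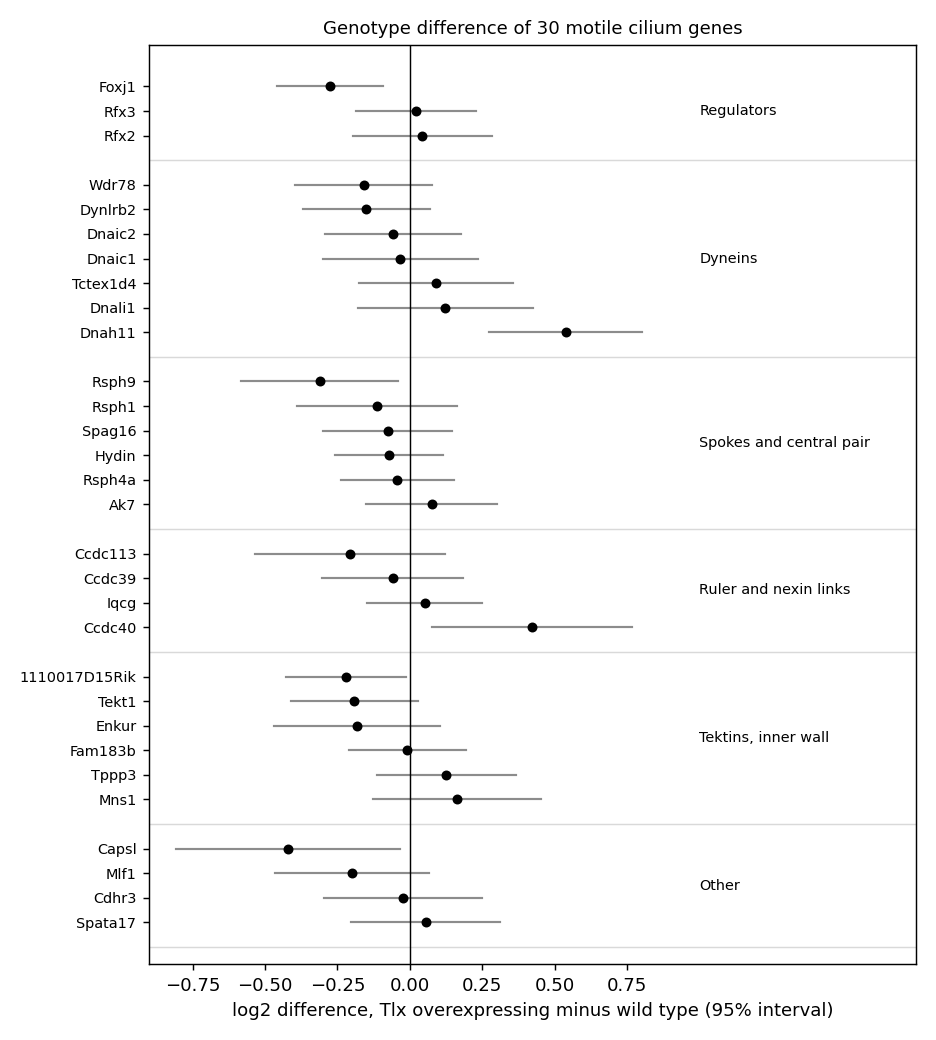
Points give the log2 difference of each of the 30 measured genes (Tlx overexpressing minus wild type, x axis), grouped by role in the cilium, and lines give the 95% interval of that gene alone. Most intervals include 0, Dnah11 (0.54) lies farthest to the right and Capsl (-0.42) farthest to the left, and no gene passed over all probes.

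Among the regulators, Foxj1 had groups that did not overlap. Its log2 signal was 5.83, 5.79, 5.60 and 5.88 in the Tlx overexpressing mice 2995, 3155, 3157 and 3163. It was 6.13, 6.03, 5.94, 6.14 and 6.03 in the wild type mice c1, c2, 2989, 2996 and 3164. Every Tlx overexpressing mouse therefore lay below every wild type mouse, with a gap between 5.88 and 5.94. The difference was -0.28 (SE 0.08, 1.21-fold), and it did not pass over all probes (limma adjusted p = 0.12). Complete separation was seen for 6.28% of all kept probes (3.04% lower, 3.24% higher), and for 5 of the 48 kept probes of the members, 4 lower and 1 higher. Foxj1 was the 1 gene of the 30 separated on its brightest probe, and the other separated probes are dimmer ones of 1110017D15Rik, Rfx3 and Rfx2. Those of Rfx3 and Rfx2 were kept through the genotype in which they were brighter. The count of separated probes is thus partly set by the detection rule, and no excess is read from it. Mouse names fall into number ranges whose meaning the labels do not give. Within the range of 2995, 2989 and 2996 Foxj1 differed by -0.21, and within that of 3155, 3157, 3163 and 3164 by -0.27. The 2 arrays of c1 differed by 0.24 for this probe, which is close to the genotype difference.

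Rfx2 and Rfx3, the X-box factors, had differences of 0.04 (SE 0.11) and 0.02 (SE 0.10) on their brightest probes. Rfx2 read 8.66, 8.48, 8.82 and 8.56 in the Tlx overexpressing mice and 8.75, 8.77, 8.32, 8.45 and 8.65 in the wild type mice, in the same order of mice as above. These values overlapped throughout. The brightest Rfx3 probe itself read near background, 4.62 to 4.87 in the Tlx overexpressing and 4.54 to 4.92 in the wild type mice. The second probe of each gene also lay near background and differed by 0.21 for Rfx2 and by -0.34 for Rfx3. That of Rfx2 was detected in 4 Tlx overexpressing mice and 1 wild type mouse, and that of Rfx3 in 1 and 5. Each was thus kept through the genotype in which it was brighter, so its separation of the groups is partly set by the detection rule and is given as a description. For Rfx3 the 2 probes had different signs. The sign of the brightest (0.02, SE 0.10) lay within its error, and the second was kept through the wild type mice. No direction can be given for Rfx3.

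Of the 7 dynein genes, 4 had a lower and 3 a higher mean in the Tlx overexpressing mice, and none passed. Dnah11, a heavy chain of the outer dynein arm that is needed for left-right asymmetry of the body, had the highest difference of the 30 genes and the smallest p. It read 6.42, 6.98, 6.91 and 6.74 in the Tlx overexpressing mice and 6.27, 6.46, 6.03, 6.25 and 6.11 in the wild type mice. Mice 3155, 3157 and 3163 lay above every wild type mouse, whereas 2995 lay below c2. The difference was 0.54 (SE 0.12, 1.45-fold, limma adjusted p = 0.060). Within the 2 ranges of mouse names it was 0.28 and 0.77. Its other probe, also detected in every mouse, read 0.15 (limma adjusted p = 0.57). The call of Dnah11 depended on the mice: it passed without mouse 2995 (0.65, limma adjusted p = 0.011), without mouse c2 (0.60, limma adjusted p = 0.044), and with array weights (0.55, limma adjusted p = 0.033).

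Dynlrb2, a roadblock light chain of dynein, read 10.85, 10.53, 10.88 and 10.82 in the Tlx overexpressing mice and 10.998, 11.11, 10.79, 10.75 and 10.96 in the wild type mice. Mouse 3155 was the lowest, and the others overlapped. Its difference was -0.15 (SE 0.10, limma adjusted p = 0.46). The outer arm intermediate chains Dnaic1 (-0.03) and Dnaic2 (-0.06), the inner arm chain Wdr78 (-0.16), the inner arm light intermediate chain Dnali1 (0.12) and the Tctex family light chain Tctex1d4 (0.09) all had limma adjusted p-values of 0.469 to 0.915. For Dnali1 a second probe had the opposite sign (-0.13). It was far dimmer, at 4.70 to 4.88 in the Tlx overexpressing and 4.76 to 5.03 in the wild type mice.

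Of the 6 measured genes of the radial spokes and the central apparatus, 5 had a lower mean in the Tlx overexpressing mice, and none passed. The spoke head protein Rsph9 had the smallest p of this group. It read 10.01, 9.50, 9.65 and 9.90 in the Tlx overexpressing mice and 10.33, 10.18, 9.90, 9.86 and 10.10 in the wild type mice. Mice 3155 and 3157 were the lowest, while 2995 and 3163 lay inside the wild type range. The difference was -0.31 (SE 0.13, limma adjusted p = 0.22), it was -0.28 on the second probe, and within the 2 ranges of mouse names it was 0.13 (2995, 2989 and 2996) and -0.42 (3155, 3157, 3163 and 3164). Rsph1, a spoke head protein with MORN repeats, read 11.49, 10.90, 11.35 and 11.31 in the Tlx overexpressing mice and 11.49, 11.66, 11.23, 11.27 and 11.23 in the wild type mice. Only 3155 lay outside the wild type range, and the difference was -0.11 (SE 0.13, limma adjusted p = 0.68).

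Rsph4a, the third spoke head protein, had a difference of -0.04 (limma adjusted p = 0.84). The central apparatus genes Spag16 (-0.08) and Hydin (-0.07), and the adenylate kinase Ak7 (0.08), had limma adjusted p-values of 0.706 to 0.748. All 5 kept probes of Spag16 were negative, from -0.37 to -0.08. Spag6l, the gene on chromosome 16 whose older name is Spag6, was detected in all 9 mice by 2 probes and is not counted among the 30. Its brightest probe differed by -0.08 (SE 0.10, limma adjusted p = 0.71).

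The 4 measured genes of the ruler and the nexin links went both ways. Ccdc40, which with Ccdc39 forms the ruler that sets the repeat of the axoneme, read 5.60, 5.90, 5.999 and 5.60 in the Tlx overexpressing mice. The wild type mice read 5.61, 5.49, 5.35, 4.77 and 5.55. The groups touched at mice 2995, 3163 and c1, and 2996 was the lowest by a wide margin. The difference was 0.42 (SE 0.16, limma adjusted p = 0.19) and 0.27 without mouse 2996. Its partner Ccdc39 read 7.13, 6.79, 7.13 and 7.04 in the Tlx overexpressing mice and 7.28, 7.30, 6.87, 7.02 and 6.94 in the wild type mice. These values overlapped, with a difference of -0.06 (SE 0.11), and 2 further probes of Ccdc39, both dimmer, were negative as well. The nexin link protein Iqcg (0.05) and the ciliary coiled-coil protein Ccdc113 (-0.21) had limma adjusted p-values of 0.81 and 0.51.

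Of the 6 measured genes grouped here with the tektins and the doublet wall, Tppp3 among them, 4 were lower and 2 higher in mean, and none passed. 1110017D15Rik, a gene of ciliated cells and spermatids, read 10.52, 10.12, 10.41 and 10.37 in the Tlx overexpressing mice and 10.70, 10.64, 10.61, 10.45 and 10.47 in the wild type mice. Mouse 2995 alone of the Tlx overexpressing mice reached the wild type range, and the difference was -0.22 (SE 0.10, limma adjusted p = 0.26). Its 2 dimmer probes separated the genotypes, each at -0.36 (limma adjusted p = 0.12 and 0.11), so all 3 probes had the same sign. Fam183b read 10.55, 10.31, 10.56 and 10.57 in the Tlx overexpressing mice and 10.42, 10.64, 10.59, 10.31 and 10.55 in the wild type mice. Its difference was -0.01 (SE 0.09, 95% interval -0.21 to 0.19), the smallest of the 30 genes. Tekt1, a filament protein of the doublet wall (-0.19 and, on a second probe, -0.36), the inner protein Enkur (-0.18), the tubulin-binding protein Tppp3 (0.13) and Mns1 (0.16) had limma adjusted p-values of 0.351 to 0.587 on their brightest probes.

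The last 4 genes mark ciliated cells without a settled place in the axoneme. Capsl, a calcium-binding protein, had the lowest difference of all members. It read 6.42, 5.43, 6.03 and 6.43 in the Tlx overexpressing mice and 6.60, 6.22, 6.48, 6.66 and 6.53 in the wild type mice. Mice 3155 and 3157 lay below every wild type mouse, and 2995 and 3163 lay among them. The difference was -0.42 (SE 0.18, limma adjusted p = 0.25), and without mouse 3155 it was -0.20. Mlf1 read 9.31, 8.76, 9.02 and 9.21 in the Tlx overexpressing mice and 9.55, 9.30, 9.14, 9.10 and 9.28 in the wild type mice, a difference of -0.20 (SE 0.12, limma adjusted p = 0.42) with 3155 again lowest. Cdhr3, a cadherin of ciliated epithelia (-0.02), and Spata17 (0.06) had limma adjusted p-values of 0.94 and 0.85. Of the 12 members with several kept probes, 9 had the same sign on all of them, and Cdhr3, Dnali1 and Rfx3 did not. The tally includes probes near background, such as the dimmer ones of Dnali1, Rfx2 and Rfx3, so it is a description.

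**Figure D2:**
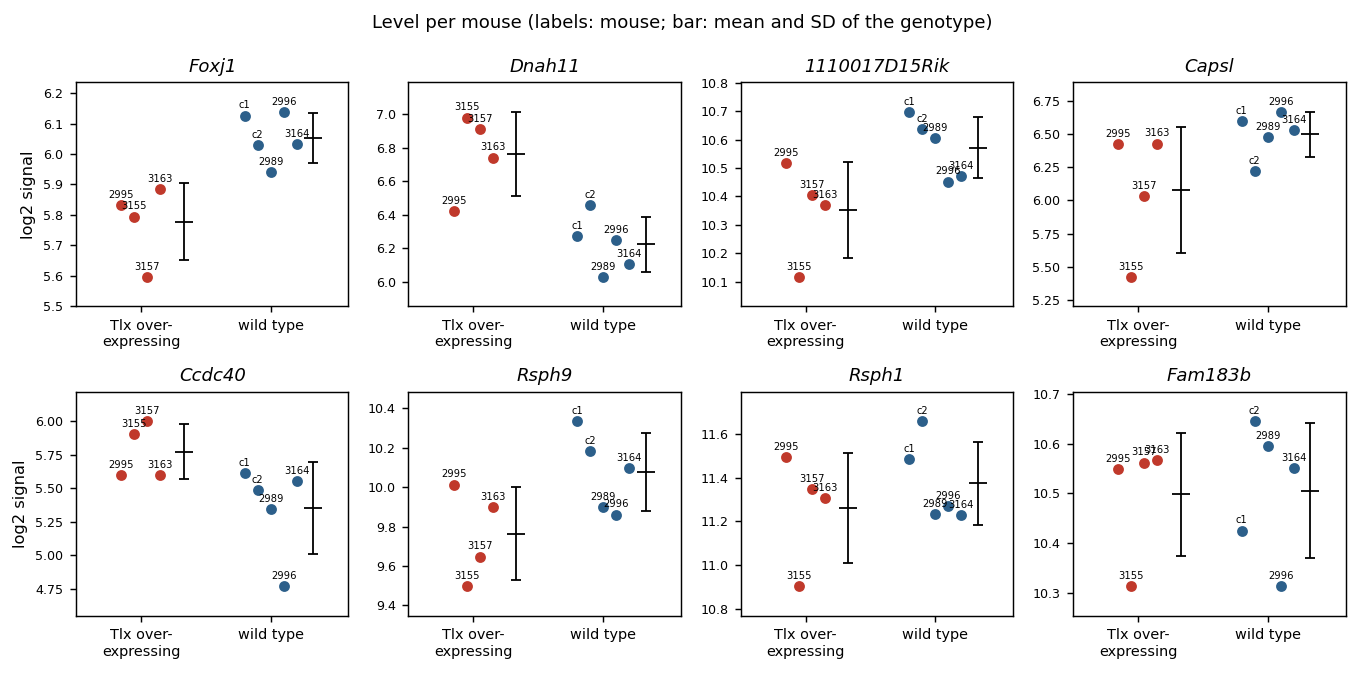
Each point is the log2 signal (y axis) of 1 mouse, labelled by its name, for 8 members (Foxj1 separates the groups, and Fam183b has the smallest difference), with the mean and SD of each genotype beside the points. Mouse 3155 is the lowest Tlx overexpressing mouse for 1110017D15Rik, Capsl, Rsph9, Rsph1 and Fam183b, and the highest for Dnah11.

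Over the 9 mice the members ranged by a median of 0.58 on the log2 scale (0.33 to 1.24), compared with 0.49 over all kept probes. The median size of the genotype difference was 0.12 for the members and 0.11 for all kept probes. The 2 arrays of mouse c1 differed by a median of 0.08 for the members and 0.11 for all kept probes. The genotype difference exceeded the difference of these 2 arrays for 18 of the 30 genes. A difference of group means and a difference of single arrays of mouse c1 are unlike measures. The same share was not taken over all kept probes, so the count is a description.

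Mouse 3155 gave the lowest value for 13 of the 30 members, where it was lowest for 17.3% of all kept probes. Wild type mouse 2996 gave the lowest value for 8 (16.6% of all kept probes). The highest value came from wild type mouse c2 for 7 members (7.95% of all kept probes), from Tlx overexpressing mouse 3157 for 6 (10.1%), from c1 for 5 (12.8%) and from 3155 for 1 (16.2%). The mean level of the members, each centred on its mean over the 9 mice, was -0.20 in 3155 and 0.05, 0.03 and 0.03 in 2995, 3157 and 3163. In the wild type mice it was 0.10 in c1, 0.14 in c2, -0.04 in 2989, -0.09 in 2996 and -0.02 in 3164. The 3 Tlx overexpressing mice other than 3155 thus lay inside the wild type range, and without 3155 the median difference of the members was 0.01, with 14 of 30 negative. Within mice 2995, 2989 and 2996, the members' median difference was 0.13, with 6 of 30 negative. Within mice 3155, 3157, 3163 and 3164 it was -0.06, with 19 of 30 negative. The first of these comparisons has 1 Tlx overexpressing mouse and the second has 1 wild type mouse, so neither has a test. When the fit also held a term for these ranges, the median was 0.03, with 13 of 30 negative.

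**Figure D3:**
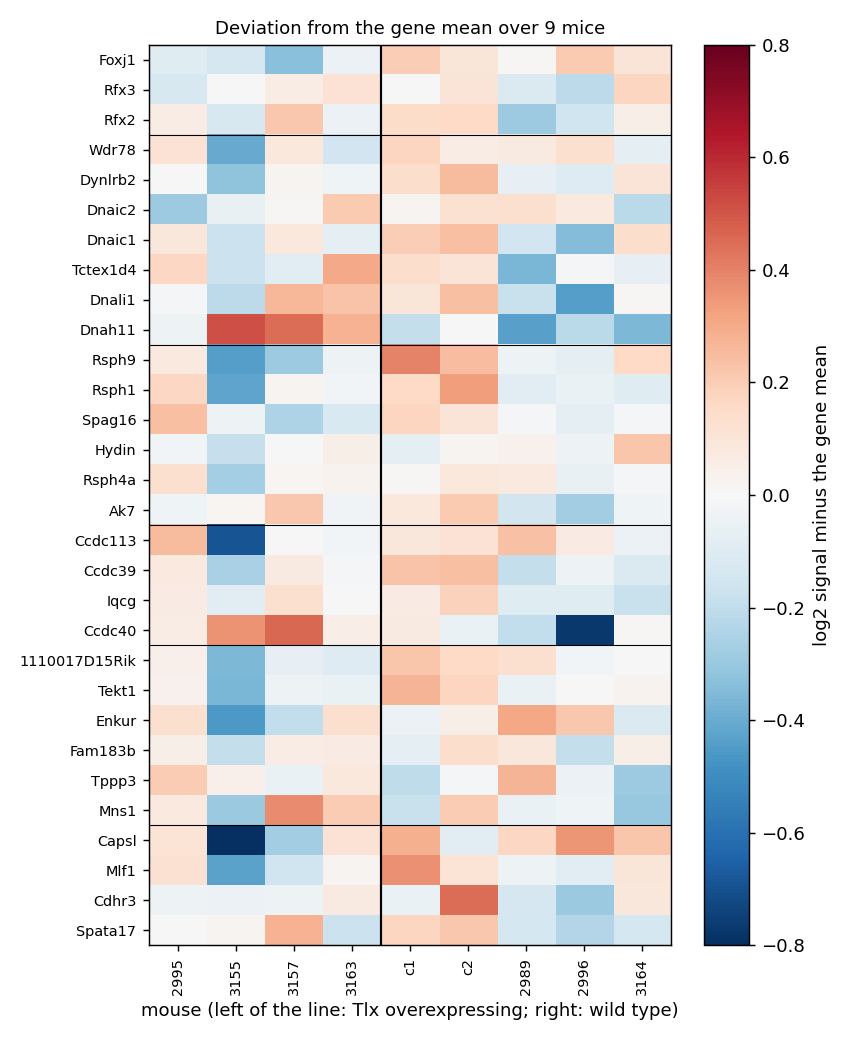
Colours give the log2 signal of each of the 30 members (rows, grouped by role) minus its mean over the 9 mice (columns), red above and blue below. The column of mouse 3155 is blue for most genes and red for Dnah11 and Ccdc40, and the column of c2 is red for most genes.

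Further cilium genes outside the 38 were read from the same fit. Of 110 further axoneme genes 64 were measured, of which 46 had a lower mean in the Tlx overexpressing mice, with a median difference of -0.09. In this list 1 gene passed: Efhc2 fell by 0.44 on the log2 scale (SE 0.09, limma adjusted p = 0.037). It read 5.00, 4.66, 4.92 and 4.86 in the Tlx overexpressing mice and 5.29, 5.35, 5.18, 5.30 and 5.38 in the wild type mice, with no overlap. Its direction was the same in all 18 alternatives, and its call was kept in 7 of them. It was lost with the authors' quantile-normalized values, an offset of 50, no filter or a term for the ranges of mouse names, where the limma adjusted p was 0.060, 0.067, 0.071 and 0.19. It was also lost without mouse 3155 (-0.37, limma adjusted p = 0.11), 3157, 3163, c1, c2, 2996 or 3164. None of 13 regulators and centriole genes of multiciliated cells passed (6 negative, median 0.03), and the smallest p-values were those of Ccdc78 (-0.42, limma adjusted p = 0.19) and E2f4 (-0.22, limma adjusted p = 0.22). None of 46 genes of intraflagellar transport and the BBSome, which primary cilia use too, passed (30 negative, median -0.06), with Tulp3 (-0.32) and Bbs5 (-0.30) at a limma adjusted p of 0.13. At an unadjusted p under 0.05 limma gave 13 lower and 0 higher further axoneme genes, 3 lower multiciliated cell genes and 6 lower transport genes, the latter 2 lists with 0 higher, where 9.20% of all kept probes were lower and 8.39% higher. In 5 of the 64 further axoneme genes every Tlx overexpressing mouse lay below every wild type mouse, where 3.04% of all kept probes did so. They were Efhc2, Spag1, Stoml3, Vwa3a and Ttc12. Of these, Ttc12 was detected in 0 Tlx overexpressing and 4 wild type mice and so was kept through the wild type mice alone. The separation of Ttc12 is thus partly set by the detection rule, and no excess is read from a count that includes it. These 5 are named because they made up that count. Mouse 3155 had the lowest mean level in these 3 lists as well, at -0.24, -0.08 and -0.14.

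Of 22 measured ependymal genes outside the cilium 14 were negative, with a median of -0.07 and a range of -0.78 to 0.43. At an unadjusted p under 0.05 limma gave 3 lower and 4 higher ones, where 9.20% of all kept probes were lower and 8.39% higher. The groups did not overlap for 2 lower and 2 higher genes of this list, compared with 3.04% and 3.24% of all kept probes. Mia, a small secreted protein, fell (-0.78, SE 0.13, limma adjusted p = 0.021), reading 10.14, 9.38, 9.71 and 9.86 in the Tlx overexpressing mice and 10.64, 10.68, 10.41, 10.42 and 10.62 in the wild type mice. No other gene of this list passed. Its call was kept in 13 of 18 alternatives and was lost without mouse 3157, 3163 or c1, with no filter (limma adjusted p = 0.094) and with the term for the ranges of mouse names (limma adjusted p = 0.15).

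The tissue also held RNA of neighbouring cell types, whose levels differed between mice. In this bulk tissue, fewer cells of a type and less RNA per cell cannot be told apart. Choroid plexus genes were lowest in mouse 3155 for 20 of 21 measured genes of 24. All 21 were negative, with a median of -0.72, and Calml4 (-1.14, limma adjusted p = 0.016) and Steap1 (-0.83, limma adjusted p = 0.037) passed, the first in 15 and the second in 8 of 18 alternatives. The fall was not uniform over the ranges of mouse names. Within mice 2995, 2989 and 2996 the median difference was 0.06, with 8 of 21 negative. Within mice 3155, 3157, 3163 and 3164 it was -0.87, with 20 of 21 negative, and neither comparison has a test. The mean choroid plexus level was 0.18, -0.94, -0.47 and -0.35 in mice 2995, 3155, 3157 and 3163 and 0.63, 0.39, 0.02, 0.31 and 0.24 in mice c1, c2, 2989, 2996 and 3164. Mouse 3155 was thus lowest for both the choroid plexus and the motile cilium genes, and c1 and c2 were highest for both. Mice 3157 and 3163 were low for the choroid plexus genes and near the middle for the members. Wild type mouse 2996 lay below every mouse but 3155 for the members (-0.09) and was high for the choroid plexus genes (0.31). The part of choroid plexus RNA in the members' values was not tested. All 9 measured neuroblast genes of 12 had a higher mean in the Tlx overexpressing mice, with a median difference of 0.45. Of these Igfbpl1 (0.72), Dcx (0.59) and Tubb2b (0.45) passed, with limma adjusted p-values of 0.033, 0.038 and 0.037, in 11, 8 and 9 of 18 alternatives. At an unadjusted p under 0.05 limma gave 20 lower and 0 higher of the 21 choroid plexus genes. For the 9 neuroblast genes it gave 0 lower and 6 higher, where 9.20% of all kept probes were lower and 8.39% higher. The part of neuroblast RNA in the members' values was not tested. The neuroblast level was 0.07 to 0.28 in the Tlx overexpressing and -0.28 to 0.09 in the wild type mice. Mean levels of the other markers overlapped between the genotypes as well, with ranges of -0.05 to 0.04 against -0.07 to 0.14 for astrocytes, -0.13 to 0.02 against -0.21 to 0.22 for striatal neurons, -0.04 to 0.15 against -0.30 to 0.39 for oligodendrocytes, 0.05 to 0.19 against -0.21 to 0.14 for microglia and -0.19 to 0.04 against -0.03 to 0.20 for endothelium (Tlx overexpressing against wild type). These means hide differences of single genes, none of which passed. At an unadjusted p under 0.05 limma gave 3 lower and 3 higher of 12 astrocyte genes, and 0 lower and 6 higher of 11 microglia genes. The striatal neuron, oligodendrocyte and endothelial lists each had 1 or 2 lower and 0 or 1 higher. Of all kept probes 9.20% were lower and 8.39% higher at that limit.

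**Figure D4:**
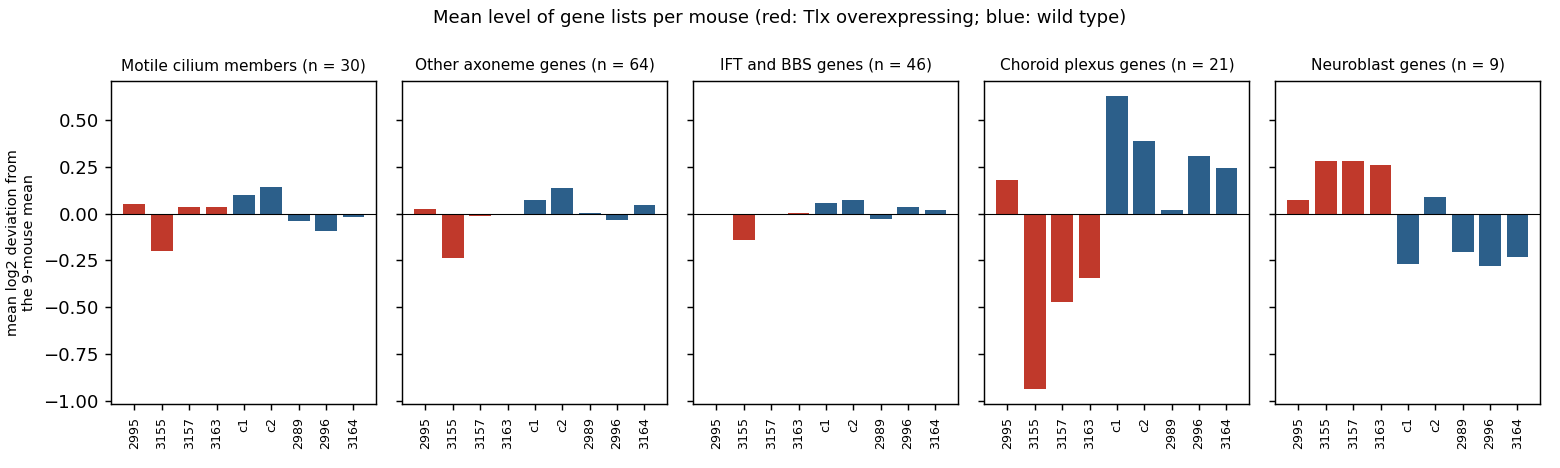
Bars give the mean log2 deviation from the 9-mouse mean (y axis) of 5 gene lists in each mouse, red for Tlx overexpressing and blue for wild type. The motile cilium members stay between -0.20 and 0.14, whereas the choroid plexus genes run from -0.94 in mouse 3155 to 0.63 in mouse c1.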

How the data were processed

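Labelled cRNA of laser-captured SVZ was hybridised, per the labels' protocols. The authors deposited a pair of tables with a linear intensity for each probe and array, and 1 of them also gave a detection p-value, per the file headers. The intensities of the table called non-normalized had the same distribution on each array and so were already quantile-normalized, and the other table, with the same probe ranks, was the starting point, which is the reverse of what the tables' names say. The sources used here do not name earlier software or background steps. The neqc function of limma 3.58.1 (R 4.3.3) subtracted a background modelled from the detection p-values, added an offset of 16, equalised the arrays and gave log2 values. Values are relative brightness, and the offset compresses changes of dim probes. The arrays of c1 were averaged, and c1 counted as detected where both arrays were. On each array 20068 to 20590 probes were detected. Genotypes were compared over 20401 kept probes with lmFit and eBayes, two-sided, with Benjamini-Hochberg adjustment at 0.05, and intervals are per gene at 95%. The code of the fit was run on simulated data with independent noise for each probe and mouse. That run does not cover deviations that many genes of 1 mouse share. Probes were named from the platform's annotation, updated through RefSeq (GRCm38.p6), and 34885 of 45281 had 1 gene symbol. The members and lists were chosen with earlier results of these data known. Values in every mouse are given for Foxj1 and, in each role, for the member with the smallest p and the brightest one. From other lists the genes past the threshold, or else those with the smallest p, are named. Alternatives were another start table, offset, normalization or filter, leaving out each mouse, each c1 array alone, the mean over probes, array weights, and a term for the range of mouse names.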

Additional observations from a re-analysis of the deposited data

Results flagged for a closer look

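In 3 of the 60 groups examined (30 members in 2 genotypes) 1 mouse lay apart from the others of its genotype, a gap that chance gives in about 1 of 20 groups. Dynlrb2 in Tlx overexpressing mouse 3155 was 10.53, and the nearest Tlx overexpressing mouse was at 10.82. Fam183b in mouse 3155 was 10.31, and the nearest was at 10.55. Cdhr3 in mouse 3163 was 8.87, above the nearest at 8.76.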

How the results depend on the processing

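No member was called lower in any alternative run, and 1, Dnah11, was called higher in 3 of them: without Tlx overexpressing replicate 1 (mouse 2995) or wild type replicate 2 (c2), and with array weights. The count of members called higher ran from 0 to 1 on leaving out mice and was 1 with array weights. The members' median difference ran from -0.08 to 0.03 and changed sign without mouse 3155 and with the range term. The count of all called probes was 122 with an offset of 50, 56 with no filter, 51 with the range term and 609 with array weights, and 26 to 754 on leaving out 1 mouse: 754 without mouse 2995, 71 without 3155, 26 without 3157, 39 without 3163, 63 without c1, 84 without 2996 and 122 without 3164. The cause was not tested. Of 539 member values, 509 kept their direction and side of the threshold, 3 (Dnah11) became calls and 27 changed sign, none of them a called gene, while 19 of the 30 genes had no change of sign. With the range term the values with a changed sign were -0.043 for Rfx3, 0.091 for Rsph1, 0.025 for Rsph4a, 0.070 for Spag16, 0.058 for Dnaic1, 0.11 for Ccdc39, 0.0079 for Fam183b, 0.032 for Cdhr3. Without the quantile step Fam183b was 0.041. On leaving out mice, the values ran from -0.024 to 0.095 for Rfx2, -0.029 to 0.068 for Rfx3, -0.19 to 0.0069 for Rsph1, -0.094 to 0.039 for Rsph4a, -0.12 to 0.023 for Dnaic1, -0.14 to 0.026 for Dnaic2, -0.11 to 0.018 for Ccdc39, -0.056 to 0.054 for Fam183b, -0.10 to 0.085 for Cdhr3 and -0.027 to 0.12 for Spata17. No paired analysis was possible because mice of the 2 genotypes share no number. Signals near background, as for Hydin and both probes of Rfx3, and the number of mice limit what could be detected.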
